A study of Mus musculus with 2 samples.

Results

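Transcript levels of 10 genes that are used to recognise recruited monocytes and the macrophages of scarred or lipid-laden tissue were examined in hepatic stromal cells of fibrotic mouse liver. The genes were chosen by name, with earlier results of these data known though by no threshold on their values, and all 10 were found among the 38320 gene entries of both libraries. Trem2, Gpnmb, Cd9, Cd63, Lgals3 and Fabp5 stand for scar-associated and lipid-associated macrophages, and Ly6c2, Chil3, Plac8 and Lyz2 for monocytes and the cells that derive from them. The study compared 2 genotypes of adult male C57/Bl6 mice. Foxf1fl/fl mice carry floxed alleles of Foxf1, a forkhead transcription factor gene expressed in hepatic stellate cells, and have no Cre. In αSMACreER;Foxf1-/- mice the same alleles are deleted by a tamoxifen-inducible Cre recombinase under the α-smooth muscle actin promoter, which is active in myofibroblasts and smooth muscle rather than in macrophages. Mice of both genotypes were given carbon tetrachloride (CCl4), a liver toxin that causes fibrosis, for 5 weeks. Tamoxifen, which activates the Cre, was injected repeatedly during that period. Liver cells were allowed to attach to plastic for 2 h, and RNA of the attached cells was pooled across mice and sequenced. Each genotype had 1 pooled library, so the differences below have no replicate check and carry neither p-values nor SDs.

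Liver macrophages have several origins. Kupffer cells settle in the liver before birth and renew themselves there, whereas inflammatory monocytes marked by Ly6C enter from the blood after injury and can mature into macrophages that sit in the scar. The mature cells express TREM2, a receptor for lipids that signals through the adaptor TYROBP, together with proteins of lysosomes, endosomes and lipid handling. These genes are read as markers of cell states, but several are also expressed in other cells, and Lyz2 and Plac8 are expressed in neutrophils as well as in monocytes.

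Levels are given as FPKM, the number of fragments per kilobase of transcript, normalized to the mapped fragments of a library, as deposited. Differences are log2(FPKM + 0.1) of the αSMACreER;Foxf1-/- library minus that of the Foxf1fl/fl library, after the former was divided by 1.02, the median ratio between the libraries. A difference of at least 1.5-fold (0.58 on the log2 scale) was counted as higher or lower where the mean FPKM of a gene reached 1. Of the 12861 genes that passed this minimum, 12.9% were higher and 13.2% lower in the αSMACreER;Foxf1-/- library. Higher genes made up 49.5% of these calls, 71.6% when the libraries were scaled to an equal FPKM sum, and 59.8% when they were scaled by pan-macrophage genes. About 9860000 reads (Foxf1fl/fl) and 11240000 reads (αSMACreER;Foxf1-/-) were estimated from the spacing of low values, of which only 50.3% and 50.9% lay within 0.1 of a whole read, so these depths are rough. The 95% intervals beside the log2 differences below are approximate Poisson intervals from these depths and cover counting error only.

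All 10 genes passed the expression minimum, and none was 1.5-fold higher or lower, against the 12.9% and 13.2% of all genes. Gpnmb and Ly6c2 had the highest log2 differences, 0.47 each, and Plac8 the lowest, -0.45. Scaled to an equal FPKM sum, Gpnmb and Ly6c2 stood at 0.68 each and would be counted as higher, as would 21.9% of all genes. Trem2, Cd9, Cd63 and Fabp5 differed by less than 0.1. The median log2 difference of the 10 genes was 0.02, beside 0.0058 over all 12861 genes, and the middle 50% of all genes lay between -0.32 and 0.33. Together the 10 genes made up 1.03% of the summed FPKM of the Foxf1fl/fl library and 1.10% of that of the αSMACreER;Foxf1-/- library. Their own sum was 7673 and 7255 FPKM, and that of all genes 743198 and 656549 FPKM. The larger share thus came with a smaller sum of the 10 genes. In pooled cells, fewer cells of a type and less RNA per cell cannot be told apart.

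**Figure D1:**
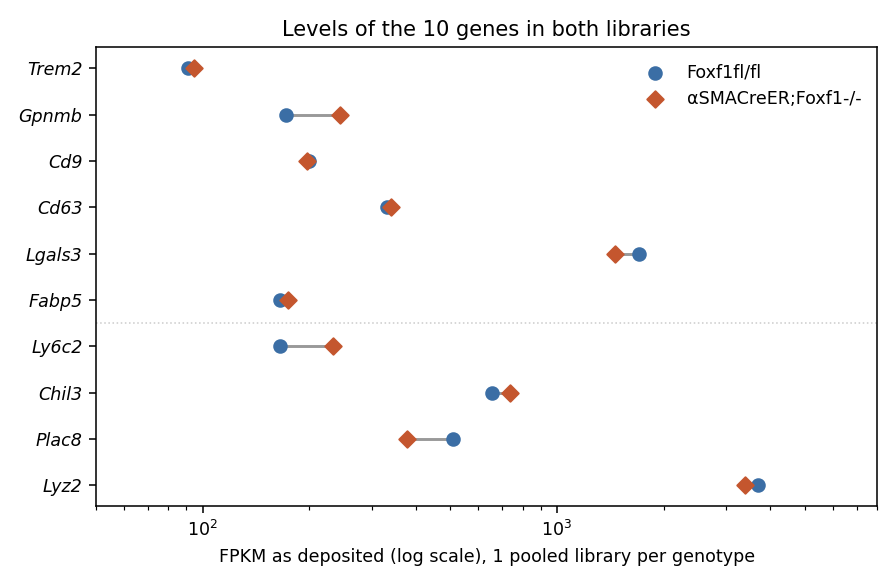
FPKM of the 10 genes (horizontal log axis) in the Foxf1fl/fl library (blue circles) and the αSMACreER;Foxf1-/- library (orange diamonds), with scar-associated genes above the dotted line and monocyte genes below it. Trem2 was lowest, at 91.1 and 94.7 FPKM, and Lyz2 highest, at 3682 and 3395 FPKM.

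The order of levels was much alike in both libraries, and the 10 genes spanned 40.4-fold in the Foxf1fl/fl library and 35.9-fold in the αSMACreER;Foxf1-/- library. Lyz2 was the 16th most abundant gene in the Foxf1fl/fl library and the 18th in the αSMACreER;Foxf1-/- library. It alone gave 0.495% and 0.517% of the summed FPKM, a larger share at a lower FPKM, since the sum over all genes was lower. Lgals3 followed, in places 53 and 43, then Chil3, in places 186 and 135. Plac8 ranked above Cd63 in both libraries. Below them, Cd9 ranked above Gpnmb, Ly6c2 and Fabp5 in the Foxf1fl/fl library, whereas Gpnmb and Ly6c2 ranked above Cd9 in the αSMACreER;Foxf1-/- library. With 1 library per genotype, the spread that would separate neighbours in this order is unknown.

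TREM2 binds lipids and dying cells and is the receptor after which lipid-associated macrophages are often named. Trem2 (ENSMUSG00000023992, chromosome 17, 48346401 to 48354147, plus strand, GRCm38) stood at 91.1 FPKM in the Foxf1fl/fl library and 94.7 FPKM in the αSMACreER;Foxf1-/- library. Its log2 difference was 0.03, with an interval of -0.11 to 0.17. These levels corresponded to about 798 and 946 reads, the fewest of the 10 genes, and the interval spans 0. Trem2 was thus near-equal in both libraries at this depth, and its ratio to Adgre1, the gene of the F4/80 antigen of mouse macrophages, was 0.562 and 0.574.

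GPNMB is a transmembrane glycoprotein of lysosomes that is abundant in macrophages loaded with lipid or debris. Gpnmb (ENSMUSG00000029816, chromosome 6, 49036546 to 49070929, plus strand) stood at 172 FPKM in the Foxf1fl/fl library and 243 FPKM in the αSMACreER;Foxf1-/- library. The log2 difference was 0.47 (0.43 to 0.52), a 1.39-fold higher level that remained under the threshold. Gpnmb moved from place 609 to place 400 in the order of abundance. With a coding transcript of 3701 bases it is the longest of the 10 genes and had about 5943 and 9575 reads. Among the scar-associated genes examined, Gpnmb had the only interval wholly above 0.

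CD9 and CD63 are tetraspanins, membrane proteins that organise other receptors, of which CD63 lies mainly in late endosomes and lysosomes. Cd9 (ENSMUSG00000030342, chromosome 6, 125460266 to 125494791, minus strand) stood at 199 FPKM in the Foxf1fl/fl library and 197 FPKM in the αSMACreER;Foxf1-/- library. Cd63 (ENSMUSG00000025351, chromosome 10, 128900989 to 128912822, plus strand) stood at 332 and 339.9 FPKM. The log2 differences were -0.04 (-0.13 to 0.04) for Cd9 and 0.01 (-0.06 to 0.08) for Cd63, and both intervals span 0. Cd63 was 1.67 times as high as Cd9 in the Foxf1fl/fl library and 1.73 times in the αSMACreER;Foxf1-/- library. Their relatives Cd81 and Cd82 had log2 differences of -0.09 and -0.10.

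Galectin-3, the product of Lgals3, is a secreted lectin that is abundant in activated macrophages. Lgals3 (ENSMUSG00000050335, chromosome 14, 47367751 to 47386160, plus strand) stood at 1703 FPKM in the Foxf1fl/fl library and 1461 FPKM in the αSMACreER;Foxf1-/- library. Its log2 difference of -0.25 (-0.28 to -0.22) was the lowest of the scar-associated genes. Lgals1, which encodes the related galectin-1, had a log2 difference of -0.25 as well, and the ratio of Lgals3 to Lgals1 was 3.50 in both libraries.

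FABP5 carries fatty acids inside the cell. Fabp5 (ENSMUSG00000027533, chromosome 3, 10012548 to 10016607, plus strand) stood at 165 FPKM in the Foxf1fl/fl library and 174 FPKM in the αSMACreER;Foxf1-/- library, a log2 difference of 0.05 (-0.05 to 0.16). Fabp4, the related carrier of macrophages and fat cells, stood at 415 and 305 FPKM, a log2 difference of -0.47. The ratio of Fabp4 to Fabp5 was therefore 2.52 with Foxf1fl/fl and 1.75 with αSMACreER;Foxf1-/-.

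Ly6c2 encodes one of the surface proteins detected as Ly6C, by which inflammatory monocytes are sorted. Ly6c2 (ENSMUSG00000022584, chromosome 15, 75108158 to 75111970, minus strand) stood at 166 FPKM in the Foxf1fl/fl library and 234 FPKM in the αSMACreER;Foxf1-/- library. The log2 difference was 0.47 (0.36 to 0.58), again 1.39-fold and under the threshold, and Ly6c2 moved from place 630 to place 413. Its neighbour Ly6c1, which endothelial cells express, was far lower at 2.03 and 4.19 FPKM, a log2 difference of 0.99. Ly6c1 rested on about 12.9 and 30.4 reads, with a wide interval of 0.05 to 1.93. Ly6c2 and Ly6c1 share sequence, so that reads could be split between them, but Ly6c2 was 81.8 and 55.8 times as high as Ly6c1.

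Chil3 encodes Ym1, a chitinase-like protein secreted by monocytes and alternatively activated macrophages. Chil3 (ENSMUSG00000040809, chromosome 3, 106147554 to 106167564, minus strand) stood at 656 FPKM in the Foxf1fl/fl library and 739 FPKM in the αSMACreER;Foxf1-/- library. Its log2 difference was 0.15 (0.11 to 0.19), so the interval lay above 0 while the fold was small. The near-identical Chil4 was at 2.13 and 3.16 FPKM, and Chil1, a relative in the same family, stood at 91.4 and 67.4 FPKM, a log2 difference of -0.46.

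PLAC8 is a small cysteine-rich protein of myeloid cells. Plac8 (ENSMUSG00000029322, chromosome 5, 100553725 to 100572245, minus strand) stood at 507 FPKM in the Foxf1fl/fl library and 378 FPKM in the αSMACreER;Foxf1-/- library. It had the lowest log2 difference of the 10 genes, -0.45 (-0.51 to -0.39), a 1.37-fold lower level that did not pass the threshold. It lay on the opposite side of 0 from Ly6c2, although both are used as markers of the same monocytes.

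Lysozyme M, the product of Lyz2, is the bacteria-degrading enzyme of macrophages, monocytes and neutrophils. Lyz2 (ENSMUSG00000069516, chromosome 10, 117277331 to 117282321, minus strand) stood at 3682 FPKM in the Foxf1fl/fl library and 3395 FPKM in the αSMACreER;Foxf1-/- library. Its log2 difference was -0.14 (-0.16 to -0.12). The related Lyz1, which Paneth cells of the gut express, was at 8.50 and 9.96 FPKM, so Lyz2 was 433 and 341 times as high. Of 20 paralogs of the 10 genes, 15 passed the expression minimum. Ly6c1 and Treml2 (0.65) were higher and Trem3 was lower, at 25.6 and 15.4 FPKM (-0.76).

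**Figure D2:**
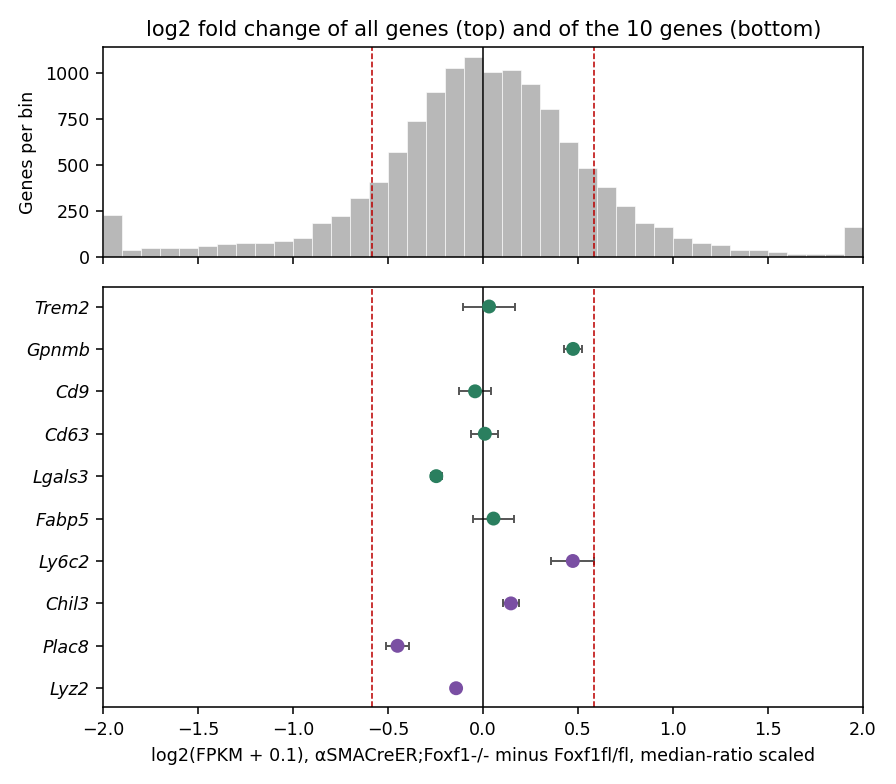
The top panel is a histogram of the log2 differences of all 12861 genes in bins of 0.1 (values beyond the axis are in the outermost bins), and the bottom panel gives the 10 genes, scar-associated in green and monocyte in purple, with approximate 95% counting intervals. The red dashed lines mark 1.5-fold, and all 10 genes lie between them, from Plac8 at -0.45 to Gpnmb and Ly6c2 at 0.47.

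By counting error alone, the interval of Gpnmb, Ly6c2 and Chil3 lay above 0, that of Plac8, Lgals3 and Lyz2 below 0, and that of the other 4 genes spanned 0. The scar-associated group had a median log2 difference of 0.02 with 4 of 6 genes above 0, and the monocyte group a median of 0.0017 with 2 of 4 above 0. With the median-ratio scaling, neither group moved in 1 direction. In the monocyte group, Ly6c2 and Chil3 were then on the higher side, and Plac8 and Lyz2 on the lower. With an equal FPKM sum, only Lgals3 (-0.04) and Plac8 (-0.25) were below 0. With the median of genes of like protein-coding transcript length subtracted, added after the data were seen, all scar-associated genes lay above 0. The group medians were then 0.36 and 0.27, and Plac8 alone stayed below 0.

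Stretches of sequence shared with other genes could affect some of these values. When coding transcripts were cut into runs of 75 bases, the length of a read, no run of Trem2, Gpnmb, Lgals3 or Plac8 occurred in a transcript of another gene. The shared portion was 25.9% for Cd63, 21.9% for Ly6c2, 14.2% for Chil3, 12.5% for Cd9, 12.0% for Fabp5 and 5.96% for Lyz2. Cd63-ps, the pseudogene that shares with Cd63, was at 1.47 and 1.16 FPKM, and no gene with such a stretch and an entry in both libraries reached 10 FPKM. Cd9 also overlaps 2 annotated genes in position, and the strandedness of the reads is not given in the sources used here. Reads of Cd9 and of those genes may therefore not be told apart.

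The sequence upstream of the transcription start is shown for the 2 genes with the highest log2 differences and for Trem2, the receptor that defines the lipid-associated state. The windows are the 250 bases before a RefSeq start site of GRCm38.p6, in the direction of transcription, at chr6:49036268-49036517 (plus strand) for Gpnmb, chr15:75111972-75112221 (minus strand) for Ly6c2 and chr17:48346151-48346400 (plus strand) for Trem2. Capitals mark a match to 1 of the motifs searched.
Gpnmb: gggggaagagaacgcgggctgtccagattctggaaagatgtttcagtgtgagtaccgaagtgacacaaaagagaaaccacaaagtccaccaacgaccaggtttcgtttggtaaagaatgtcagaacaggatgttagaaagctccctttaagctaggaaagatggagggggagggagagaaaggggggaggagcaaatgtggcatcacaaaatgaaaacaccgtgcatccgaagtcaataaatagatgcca
Ly6c2: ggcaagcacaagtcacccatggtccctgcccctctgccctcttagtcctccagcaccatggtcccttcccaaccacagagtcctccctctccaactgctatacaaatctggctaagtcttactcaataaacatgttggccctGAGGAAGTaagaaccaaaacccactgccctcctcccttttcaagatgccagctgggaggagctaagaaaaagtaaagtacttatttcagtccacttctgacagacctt
Trem2: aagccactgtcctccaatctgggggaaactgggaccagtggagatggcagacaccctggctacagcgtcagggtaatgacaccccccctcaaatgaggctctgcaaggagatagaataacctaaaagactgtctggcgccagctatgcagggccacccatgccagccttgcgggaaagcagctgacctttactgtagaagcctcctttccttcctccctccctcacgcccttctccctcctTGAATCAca

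Motifs were searched on both strands of the 250-base windows, and 9 of the 10 genes had a window, Fabp5 being the exception. For 9 of their 11 windows, the 25 bases after the start occurred in an annotated transcript of the gene. The Ly6c2 window shown holds GAGGAAGT, the core bound by the myeloid factor PU.1, which 2.44% of the 32851 windows of all genes hold. A second, overlapping Ly6c2 window, at chr15:75111938-75112187, holds the same match and another from 8 bases to 1 base before its start. The Trem2 window holds TGAATCA from 9 to 3 bases before the start. It matches TGANTCA, a loose form of the AP-1 motif that allows any base at N, as 6.75% of all windows do. TTGCNNAA, a C/EBP motif held by 9.56% of windows, was found in 1 of the Plac8 windows. CACGTG, the E-box bound by the lysosomal MiT/TFE factors (6.02% of windows), TGTTTAC, a forkhead motif (3.17%), and TATAAA (12.4%) were found in no window of these 9 genes, and the Gpnmb window held none of the motifs searched. A match describes the letters of the window and does not show a binding site. Only the letters given were searched, so other forms of these motifs, forkhead sites among them, may be present.

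Genes that act with TREM2 were compared by a list of 12, of which 11 were measured and passed the minimum. The other, Apoe, had no value among the genes kept, so its expression was not assessed. None of the 11 was 1.5-fold lower and 2 were higher, Inpp5d at a log2 difference of 0.71 and Adam10 at 0.75, against the 12.9% of all genes that were higher. Inpp5d encodes SHIP1, a lipid phosphatase that restrains signalling, and Adam10 a protease that cleaves receptors from the cell surface. Tyrobp, the adaptor through which TREM2 signals, stood at 1754 FPKM in the Foxf1fl/fl library and 1344 FPKM in the αSMACreER;Foxf1-/- library, a log2 difference of -0.41. Tyrobp was 19.3 times as high as Trem2 in the former and 14.2 times in the latter. Hcst, the alternative adaptor, was at 29.9 and 23.0 FPKM (-0.40), Syk, the kinase recruited by TYROBP, at 135 and 160 FPKM (0.23), and Plcg2, a phospholipase further down, at 19.8 and 21.8 FPKM (0.11). The median log2 difference of the list was 0.23, and 0.025 after the median of genes of like protein-coding transcript length was subtracted. With that median subtracted Inpp5d stood at 0.47 and Adam10 at 0.53, so that no gene of the list passed. With an equal FPKM sum 4 of the 11 genes were higher, against 21.9% of all genes.

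A further 24 genes of scar-associated and lipid-associated macrophages all passed the minimum, and none was 1.5-fold higher or lower. Their log2 differences ran from -0.51 to 0.57, with a median of 0.01 and 12 genes on each side of 0. Spp1, which encodes the secreted matrix protein osteopontin, stood at 495 FPKM in the Foxf1fl/fl library and 606 FPKM in the αSMACreER;Foxf1-/- library, a log2 difference of 0.27. Lpl, the lipase that frees fatty acids from lipoproteins, was at 149 and 210 FPKM (0.47), level with Gpnmb in its difference. Lipa, the acid lipase of lysosomes, was at 131 and 153 FPKM (0.20), and Plin2, which coats lipid droplets, at 765 and 859 FPKM (0.14). Scaled to an equal FPKM sum, under which 21.9% of all genes were higher, 5 of the 24 genes would be, a similar share. These were Lpl, Cd36, a fatty acid transporter gene at 128 and 185 FPKM, Itgax, which encodes the integrin CD11c, at 21.7 and 32.7 FPKM, the elastase gene Mmp12 at 221 and 316 FPKM, and the proton pump subunit gene Atp6v0d2 at 15.8 and 22.1 FPKM. They were named after their values were seen.

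The 28 further genes of monocytes and their recruitment gave 3 higher and 5 lower, shares near the 12.9% and 13.2% of all genes, and a median log2 difference of -0.10, which was 0.11 when the libraries were scaled to an equal FPKM sum. Ccr2, the receptor that brings monocytes out of the bone marrow, stood at 6.06 FPKM in the Foxf1fl/fl library and 9.09 FPKM in the αSMACreER;Foxf1-/- library, a log2 difference of 0.55. Ly6c2 was 27.3 and 25.7 times as high as Ccr2. The 3 higher genes were Ly6c1, Ms4a6b (0.69) and Cx3cr1, the fractalkine receptor gene, which was at 2.30 and 3.82 FPKM and is named although it lies below the abundance set for naming genes.

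The 5 lower genes of this list were abundant. S100a4 and S100a6, which encode small calcium-binding proteins, had log2 differences of -0.73 and -0.68, and S100a4 stood at 637 FPKM in the Foxf1fl/fl library and 392 FPKM in the αSMACreER;Foxf1-/- library. Cebpb, a transcription factor gene of myeloid cells, was at 678 and 401 FPKM (-0.78). The monocyte-attracting chemokine gene Ccl7 was at 1246 and 824 FPKM (-0.62), Ccl2 did not pass the threshold at 1601 and 1206 FPKM (-0.43), and Gngt2, a G protein subunit gene of patrolling monocytes, was the fifth (-0.60). Scaled to an equal FPKM sum, or with the median of protein-coding length groups subtracted, none of the 5 would be counted as lower.

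The cells, collected as stromal cells, held abundant macrophage transcripts beside those of matrix genes, while several defining genes of stellate cells were low. The study reported Des and Acta2 but no hepatocyte or Kupffer cell markers in its purified cells. Transcripts of both of these cell types were present in both libraries, as given below. Cd68, which encodes a lysosomal protein of macrophages, stood at 646 FPKM in the Foxf1fl/fl library and 679 FPKM in the αSMACreER;Foxf1-/- library, Adgre1 at 162 and 165 FPKM, the macrophage growth factor receptor gene Csf1r at 324 and 308 FPKM, and Fcgr1, an antibody receptor gene, at 38.8 and 37.2 FPKM. Of the stellate and myofibroblast genes, Lrat, which stores vitamin A, was at 0.08 and 0.11 FPKM, Pdgfrb at 1.03 and 1.43 FPKM, the intermediate filament gene Des at 1.70 and 3.29 FPKM and the actin gene Acta2 at 7.77 and 5.65 FPKM. Other genes of that list, named after their values were seen, were far higher, such as the collagen genes Col1a1 at 70.2 and 103 FPKM and Col3a1 at 115 and 164 FPKM, the proteoglycan gene Dcn at 127 and 186 FPKM, and Sparc, which encodes a matrix-binding protein, at 249 and 308 FPKM. Of 18 pan-macrophage genes none was higher and 1, Aif1 (-0.59, which did not pass with the values as deposited), lower, against 12.9% and 13.2% of all genes. The median log2 difference of the 18 genes was -0.09, or 0.12 with an equal FPKM sum. The level of Foxf1 itself was not analysed here.

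Markers of other cells were compared as well. Of 16 Kupffer cell genes, none was higher and 3 were lower, against 12.9% and 13.2% of all genes. Their median log2 difference was -0.32. With an equal FPKM sum the median was -0.12 and none passed. With the median of protein-coding length groups subtracted, the median was -0.17 and 1 passed. Clec4f, a lectin gene that marks Kupffer cells, stood at 1117 FPKM in the Foxf1fl/fl library and 753 FPKM in the αSMACreER;Foxf1-/- library (-0.59). Vsig4, a complement receptor gene, was at 268 and 219 FPKM (-0.32), Timd4, which binds dying cells, at 54.9 and 41.1 FPKM (-0.44), and the scavenger receptor gene Marco at 1168 and 929 FPKM (-0.36), none of which passed the threshold. The other 2 lower genes were Cd163 (-0.75), a haemoglobin scavenger receptor gene, and Id3 (-0.74), a transcriptional regulator gene.

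Of 15 neutrophil genes none was higher and 11 were lower, against 12.9% and 13.2% of all genes. Of the 11, Ly6g was at 9.82 FPKM in the Foxf1fl/fl library and listed at 0 in the αSMACreER;Foxf1-/- library. The list went from 0.350% to 0.168% of the summed FPKM, with a median log2 difference of -1.12 with or without Ly6g. S100a8 and S100a9, subunits of calprotectin, were at 625 and 256 FPKM (-1.31) and at 1258 and 504 FPKM (-1.35), whereas Csf3r, the receptor gene for the neutrophil growth factor, was at 48.4 and 53.6 FPKM (0.12). Of 17 hepatocyte genes measured all were lower, with a median log2 difference of -1.56, and the list went from 0.598% to 0.248% of the summed FPKM. The part of these cells in the values of Lyz2, Plac8 and the other members was not tested. Alb, the albumin gene, was at 2292 and 912 FPKM (-1.35). With the median-ratio scaling, 12.9% of all genes were higher and 13.2% lower, and few genes of the remaining lists passed the threshold. These were Clec9a (0.82) of 10 dendritic cell genes, Ptprb (0.69) of 14 liver endothelial genes, Cd4 (1.11) and Cd3g (-0.66) of 11 B and T cell genes, Gp1bb (0.79) of 5 platelet genes, and Des (0.89) and Lox (0.61) of 15 stellate and myofibroblast genes. The medians of these lists were 0.11, 0.18, 0.27, -0.13 and 0.42. Gp1bb had about 13.7 and 29.0 reads and an interval of -0.14 to 1.72, which spans 0. Scaled to an equal FPKM sum, 8 stellate and myofibroblast genes were higher (6 with scaling by pan-macrophage genes) and their median was 0.61. With the equal sum, 3 dendritic cell, 3 endothelial, 3 B and T cell and 2 platelet genes were also higher. Of all genes, 21.9% were higher with an equal FPKM sum and 16.3% with scaling by pan-macrophage genes. Genes of these lists and of the Kupffer and pan-macrophage lists that are named only because they passed were chosen after their values were seen.

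**Figure D3:**
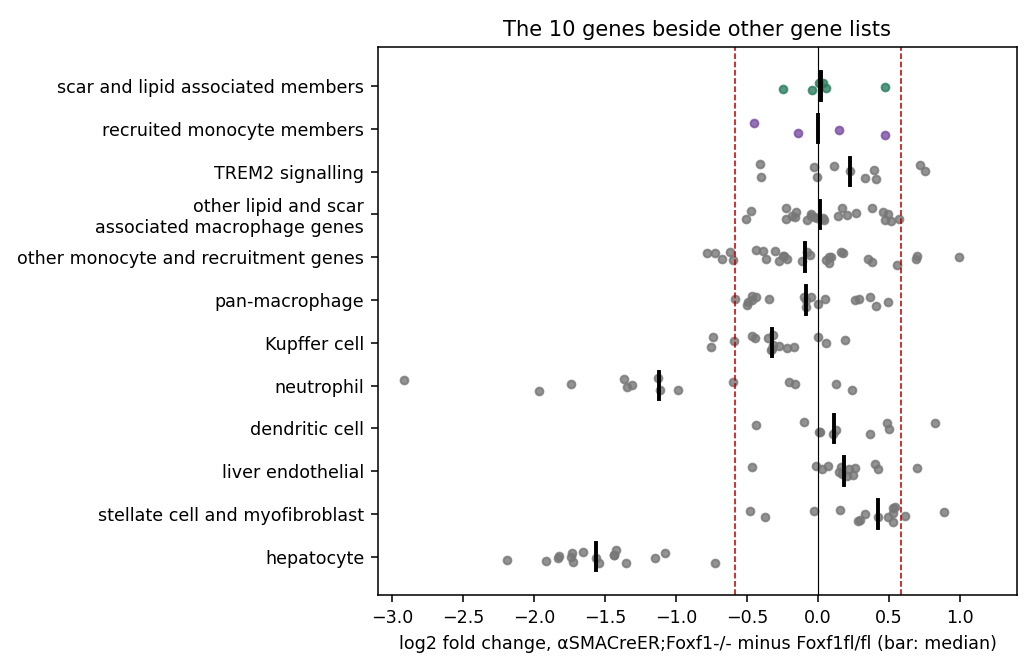
Each point is the log2 difference of 1 gene that passed the expression minimum and was above 0 FPKM in both libraries, each row is a gene list, black bars are medians and red dashed lines mark 1.5-fold. The scar-associated (green) and monocyte (purple) genes lie around 0, with medians of 0.02 and 0.0017, and the neutrophil and hepatocyte lists lie lowest.

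Ratios were also formed within each library, which no scaling between libraries can alter. Relative to Adgre1, Gpnmb went from 1.06 in the Foxf1fl/fl library to 1.47 in the αSMACreER;Foxf1-/- library, 1.39 times its former ratio. Ly6c2 went from 1.02 to 1.42, also 1.39 times, and Plac8 from 3.13 to 2.29, which is 0.731 times. The remaining 7 genes lay between 0.842 times (Lgals3) and 1.11 times (Chil3). Relative to Clec4f all 10 ratios were higher in the αSMACreER;Foxf1-/- library, since the log2 difference of Clec4f was below that of each of the 10 genes. That ratio was 2.10 times as high for Gpnmb and 2.09 times for Ly6c2, 1.67 times for Chil3 and 1.54 times for Trem2, but 1.10 times for Plac8. This depended on the denominator, as Clec4f was 1 of the 3 Kupffer cell genes past the threshold. Relative to Vsig4, Timd4 or Marco, ratios added after the values were seen, 9 of the 10 genes were higher and Plac8 was lower, at 0.911, 0.994 and 0.936 times, and Gpnmb was 1.73, 1.89 and 1.78 times as high. Each set of 10 ratios shares its denominator, so the 10 values are not independent of each other.

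**Figure D4:**
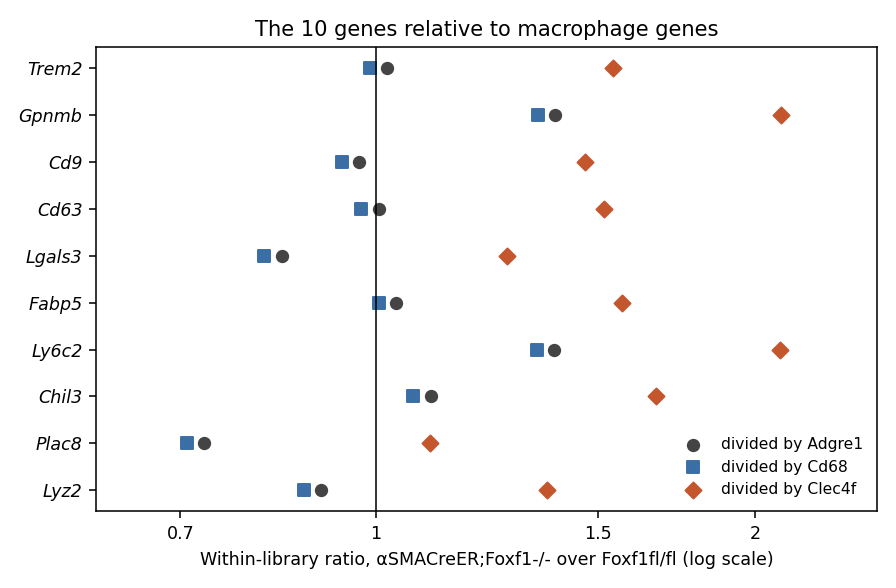
For each of the 10 genes, its FPKM divided by that of a macrophage gene (Adgre1, grey circles, or Cd68, blue squares) or of the Kupffer cell gene Clec4f (orange diamonds) in the αSMACreER;Foxf1-/- library, over the same ratio in the Foxf1fl/fl library, on a log axis. Gpnmb and Ly6c2 lie to the right of 1 for all 3 denominators, and Plac8 lies at 0.731 for Adgre1 and 1.10 for Clec4f.

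Transcript length moved with the differences across all genes. When genes were sorted into 20 groups by the length of their longest protein-coding transcript, the median log2 difference was -0.43 in the group of 531 to 918 bases and 0.50 in the group with the longest transcripts. Of the 10 genes, 9 were shorter than the median gene (median 1226 bases, against 2809 bases over all genes), and 9 lay above the median of their own length group, Plac8 being the exception. With that median subtracted, Ly6c2 (822 bases) stood at 0.91 and passed 1.5-fold, Gpnmb stood at 0.35 and Trem2 (1088 bases) at 0.39. Lgals3 and Lyz2 changed sign, to 0.06 and 0.16, as did Cd9, to 0.26, and Plac8 remained below 0 at -0.15. The part of length in these differences was not tested, and for Trem2 the sign rested on the length used, since with its longest transcript, a retained intron form of 4784 bases, the value was -0.17.

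**Figure D5:**
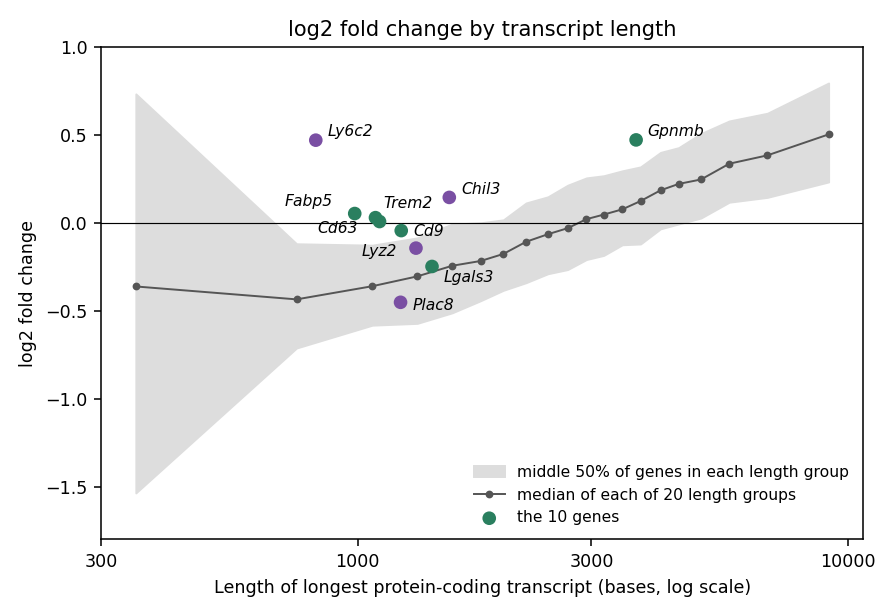
The log2 difference (vertical) against the length of the longest protein-coding transcript (horizontal log axis), with the median of each of 20 length groups as a line, the middle 50% of their genes as a grey band, and the 10 genes as points (scar-associated in green, monocyte in purple). The line rises with length, and Ly6c2, at 0.47 in the group whose median was -0.43, lies farthest above it.

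Abundance also bears on how the differences read. Among the 1089 genes whose mean FPKM reached 90, a limit chosen after the values were seen so that it takes in all 10 genes, the median log2 difference was -0.22 and the middle 50% lay between -0.43 and 0.00082. Of these, 1.47% were higher and 10.8% lower. The 1089 genes had a median protein-coding transcript length of 1907 bases, against 2809 bases over all genes. The part of length in their differences was not tested. Gpnmb was exceeded by 31 of these genes and Ly6c2 by 32, so both stood near the upper end of the abundant genes although neither passed 1.5-fold. Trem2, near 0, lay at percentile 77.5 among them, Lyz2 at percentile 59.0, and Plac8 at percentile 22.2.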

How the data were processed

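RNA of adherent liver cells was sequenced as single-end reads, with 1 pooled library per genotype (2 libraries). The authors aligned the reads with TopHat (mm10 per the labels) and deposited FPKM values, made with Cufflinks for each Ensembl gene. Counts were not analysed here. Symbols, coordinates and transcript lengths were taken from GENCODE M21 (GRCm38), and 36574 of 38320 entries had a symbol. The deposited positions of Gpnmb, Cd63, Ly6c2 and Lyz2 differ from these coordinates. The transcripts behind their FPKM may therefore differ in length and start from those used here. For a symbol with several entries the highest was kept, leaving 38279 genes, and the 3 entries whose status was not OK were left out. FPKM values were scaled by the median ratio of 12011 genes, and 0.1 was added before log2. The 1.5-fold threshold follows the study, which also set a limit on the false discovery rate that was not applied here. The calls are therefore not the gene selection of the study. Counting intervals assumed fragments of 200 bases and reads placed on the longest protein-coding transcript.

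The 10 genes and the lists were chosen with earlier results of these data known. Genes named were the 10 genes, their paralogs, the first 4 genes of each other list, and genes of the TREM2, scar-associated and monocyte lists past 1.5-fold whose mean FPKM reached 10. Not every gene that this rule names is reported here. The fold change code was tested on simulated data. There were 13 alternatives, 1 added after seeing the data. Python 3.11.15, pandas 2.3.3, numpy 2.4.6 and scipy 1.17.1 were used.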

Additional observations from a re-analysis of the deposited data

How the results depend on the processing

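None of the 10 genes was 1.5-fold lower under any of the 13 alternatives. With an equal FPKM sum 2 were higher (Gpnmb and Ly6c2), beside 21.9% of all genes. With the median of protein-coding length groups subtracted, an alternative added after seeing the data, 1 was higher (Ly6c2), beside 9.66% of all genes. Under the other alternatives none of the 10 genes was higher. Their median log2 difference was 0.22 with an equal FPKM sum, which moved the median of all genes to 0.21, 0.11 with scaling by pan-macrophage genes, 0.11 with groups of the longest transcript subtracted and 0.36 with groups of the longest protein-coding transcript subtracted. Over all settings Gpnmb ranged from 0.35 to 0.68, Ly6c2 from 0.47 to 0.91, Chil3 from 0.15 to 0.48 and Plac8 from -0.45 to -0.10. Trem2 (-0.17 to 0.39), Cd9 (-0.04 to 0.30), Lgals3 (-0.25 to 0.06) and Lyz2 (-0.14 to 0.16) took both signs. Among all genes, 1662 were higher and 1697 lower, against 2820 and 1121 with an equal FPKM sum, 3978 and 3304 without an expression minimum, 692 and 953 where the mean FPKM reached 5, and 581 and 800 at 2-fold. With 1 library per genotype no library could be left out, and variation between mice is unknown.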
